A study of Homo sapiens with 23 samples.

Results

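Propionylation of histone lysines was mapped beside acetylation in SW480, an established epithelial cell line from a human colorectal tumour, by chromatin immunoprecipitation followed by sequencing (ChIP-seq). The regions described here carried a called region of propionylated H3K18 and of propionylated H4K12 in both replicates of cells given sodium propionate (NaPr), and no called region of acetylated H3K18 or H4K12 in the same condition. They were chosen by these measured values. The regions of the 8 NaPr libraries were merged wherever they shared at least 1 bp, which gave 550995 union regions, and 642 of them (0.117%) met the rule. These 642 are called members. Members made up 3.05% of the 21016 union regions that held all 4 propionyl libraries, so a propionyl signal at both sites without a called acetyl region in NaPr was uncommon in these lists.

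Cells given 10 mM NaPr were profiled for H3K18pr, H4K12pr, H3K18ac and H4K12ac. Cells given 1 mM sodium butyrate (NaBu) were profiled for H3K18bu, H4K12bu, H3K18ac and H4K12ac, and untreated cells for the 2 acetyl marks. The 10 groups held 2 libraries each, beside 1 input library of sheared chromatin per condition. Treatment lasted 12 h. Every library came from the SW480 line, and the labels do not say whether replicates were separate cultures, so p-values measure only the spread between these libraries. Union regions with a called region of all 8 NaPr libraries (8741, called core regions) and regions with all 4 acetyl and no propionyl library (249, called acetyl regions) served for comparison.

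Lysine acylation replaces the positive charge of the side chain with an acyl group donated by an acyl coenzyme A. Acetyl, propionyl and butyryl groups differ in chain length, and propionate and butyrate are short-chain fatty acids that gut bacteria make from fibre. Acetylated H3K18 and H4K12 are found at active promoters and enhancers. In these lists a called region records that signal passed a threshold against input, not how much of the histone was modified, and the absence of a called region does not show that the mark was absent.

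The 3 sequences that follow are 200 bases around the middle of the summits (the highest points of the 4 propionyl regions) in members with the highest propionyl fold enrichment. They are shown because these members stood in different states in the other libraries: CUX1 without a called acetyl region in untreated cells but with both H3K18bu libraries, the member near SLC1A3 with none in any untreated or NaBu library, and KAZN with one in all 4 untreated acetyl libraries. All are from the plus strand of hg38, and the windows at CUX1 and KAZN lie in introns, the other in an intergenic stretch. Capitals in the CUX1 sequence mark AGGGGGC, one of the letter runs searched for CTCF.
CUX1 intron, chr7:102097138-102097337: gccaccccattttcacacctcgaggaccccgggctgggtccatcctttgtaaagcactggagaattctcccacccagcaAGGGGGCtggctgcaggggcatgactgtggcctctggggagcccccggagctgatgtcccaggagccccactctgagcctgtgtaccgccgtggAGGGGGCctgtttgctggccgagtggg
Near SLC1A3, chr5:36552608-36552807: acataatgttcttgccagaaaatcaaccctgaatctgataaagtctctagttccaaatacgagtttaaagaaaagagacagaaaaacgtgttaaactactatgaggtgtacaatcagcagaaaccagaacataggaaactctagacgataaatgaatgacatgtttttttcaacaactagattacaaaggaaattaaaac
KAZN intron, chr1:14756286-14756485: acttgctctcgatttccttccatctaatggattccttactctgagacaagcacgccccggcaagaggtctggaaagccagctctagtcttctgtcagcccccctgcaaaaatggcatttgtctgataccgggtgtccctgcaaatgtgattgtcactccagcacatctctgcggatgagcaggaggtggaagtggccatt
The GC content of these windows was 65.5% at CUX1, 32.5% near SLC1A3 and 52.0% at KAZN, so the strongest members spanned AT-rich and GC-rich DNA. The searched letters occurred at base 80 and base 174 of the CUX1 window. The other 2 windows held none of the letter runs searched.

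Members were modest in strength. Fold enrichment is the pileup of fragments over the local background at the summit, as the peak caller gave it, and the highest value within each member was used. The median fold over members was 4.55 in H3K18pr replicate 1 and 4.01 in replicate 2, and 3.63 in both replicates of H4K12pr. Over all regions of these lists the medians were 3.73, 3.66, 3.27 and 3.51. Core regions had medians of 12.7, 8.45, 6.74 and 6.82 in the same order, above the members in each library. These folds entered the selection through the caller's threshold and are given as a description.

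**Figure D1:**
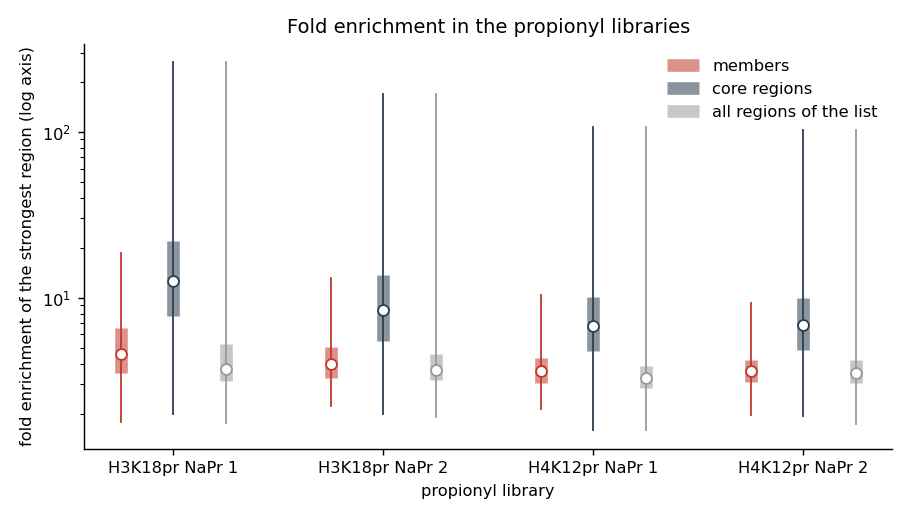
Fold enrichment of the strongest called region (log axis) in each of the 4 propionyl NaPr libraries, for members, core regions and all regions of the list. Circles are medians, thick bars span the lower to upper quartile and thin lines the lowest to highest value; member medians of 3.63 to 4.55 sit close to the medians of the lists and below those of the core.

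The lowest of the 4 folds of a member had a median of 3.07 and reached 7.43. In 552 members (86.0%) all 4 libraries also passed a q-value of 0.05. Members had a median width of 1194.5 bp, from 476 to 4840 bp, against 3075 bp for core regions and 752 bp for acetyl regions. Propionyl regions of the 4 libraries did not always coincide within a member. A base common to all 4 was present in 438 members (68.2%), and 461 held exactly 1 region of each library. The summits of the H3K18pr replicates lay a median of 176 bp apart, those of the H4K12pr replicates 215 bp, and same-numbered summits of the H3K18pr and H4K12pr libraries 202.5 bp. Members with a common base had a median width of 1073 bp and the others 1430.5 bp, and their median folds in H3K18pr replicate 1 were 5.09 and 3.76.

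Most members lay beside acetylation rather than far from it. The gap to the nearest called acetyl region of NaPr cells had a median of 556.5 bp. It was under 1 kb in 414 members (64.5%) and under 200 bp in 120 (18.7%), and only 25 (3.89%) were 10 kb or more from every such region. By library the median gap was 1616.5 bp to H3K18ac replicate 1, 2404 bp to replicate 2, 3979 bp to H4K12ac replicate 1 and 4741.5 bp to replicate 2. H3K18ac regions were thus the nearer neighbours of members and H4K12ac regions the more distant.

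Called regions were then followed in steps of 100 bp, to 10 kb on both sides of the middle of each member. Members have no strand, so downstream and upstream here mean only positive and negative offsets from the middle. At the middle, H3K18pr covered 79.4% and 67.8% of members in replicates 1 and 2, and H4K12pr covered 73.2% and 63.4%. At 2 kb downstream these had dropped to 16.7%, 12.3%, 18.4% and 11.7%. In untreated cells H3K18ac covered 19.3% and 13.4% of members at the middle and 13.2% and 12.9% at 10 kb downstream. H4K12ac covered 9.03% and 8.88% at the middle and 12.0% and 9.81% at 10 kb downstream. In NaBu cells H3K18ac covered 13.2% and 7.48% at the middle and 7.32% and 7.48% at 10 kb downstream. At 10 kb upstream untreated H3K18ac covered 8.88% and 8.26%, untreated H4K12ac 7.01% and 8.10%, and NaBu H3K18ac 5.14% and 4.52%. Replicate 1 of H3K18ac in both conditions was thus higher at the middle than 10 kb away on either side, as was untreated replicate 2. Untreated H4K12ac at the middle lay between its upstream and downstream values. The butyryl libraries lay between 0.467% and 2.49% at the middle.

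**Figure D2:**
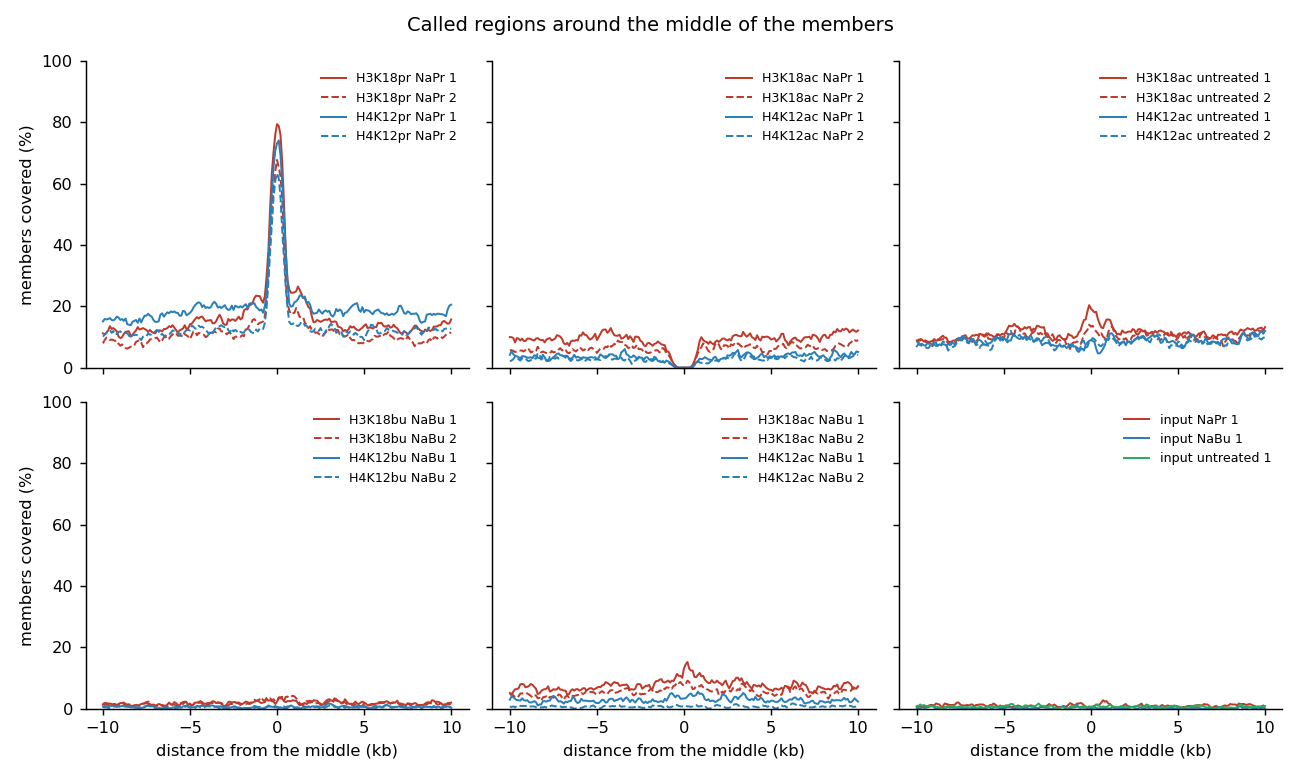
Percentage of the 642 members covered by a called region at each distance (kb) from the member's middle, 1 line per library, grouped by mark and condition. The 4 propionyl lines peak at 63.4% to 79.4% by construction, the NaPr acetyl lines fall to 0 by construction, and the untreated, NaBu and input lines are nearly flat apart from H3K18ac.

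The rule turned on single libraries to unequal degrees. Just outside it were 3176 regions with 3 propionyl and no acetyl library and 1952 regions with all 4 propionyl and 1 acetyl library. Of these 1952, H3K18ac NaPr replicate 1 was the only acetyl library in 1170 and H3K18ac NaPr replicate 2 in 569, against 127 and 86 for the H4K12ac replicates. The acetyl region in these had a median −log10 p of 6.64, with values from 2.05 to 102.3. Just inside were members with 1 propionyl region close to the caller's threshold. In chr3:52049145-52050274 the −log10 p was 4.67 and 2.05 in H3K18pr and 7.93 and 5.71 in H4K12pr. In chr5:154708205-154708923, an intron of LARP1, it was 2.08, 7.46, 5.85 and 4.27. In chr11:46316679-46318032, an intron of CREB3L1 whose nearest gene start was that of DGKZ, it was 2.12, 4.47, 6.84 and 4.47.

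Leaving out a library removes a condition of the rule, so a larger number was likely whichever was left out, and the sizes of the rises are compared. Leaving out H3K18ac NaPr replicate 1 raised the number of members to 1875. Without H3K18ac replicate 2 there were 1229, without H4K12ac replicate 1 there were 769 and without H4K12ac replicate 2 there were 730. Dropping a propionyl library gave 1379 and 1795 for H3K18pr and 1111 and 1761 for H4K12pr. The 2 libraries labelled H3K18ac NaPr also stood apart from each other. Among the 8158 strongest regions of each list, the highest shares of base pairs of replicate 1 (Jaccard index, shared over combined length) were with untreated H4K12ac, at 0.512 and 0.507, and untreated H3K18ac replicate 2, at 0.472. Those of replicate 2 were with propionyl libraries, at 0.425 for H3K18pr replicate 2, 0.391 for H3K18pr replicate 1 and 0.375 for H4K12pr replicate 1. Replicate 1 had the longest NaPr list, with 202787 regions against 95194 in replicate 2. Values without replicate 1 are given beside the results that moved most.

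**Figure D3:**
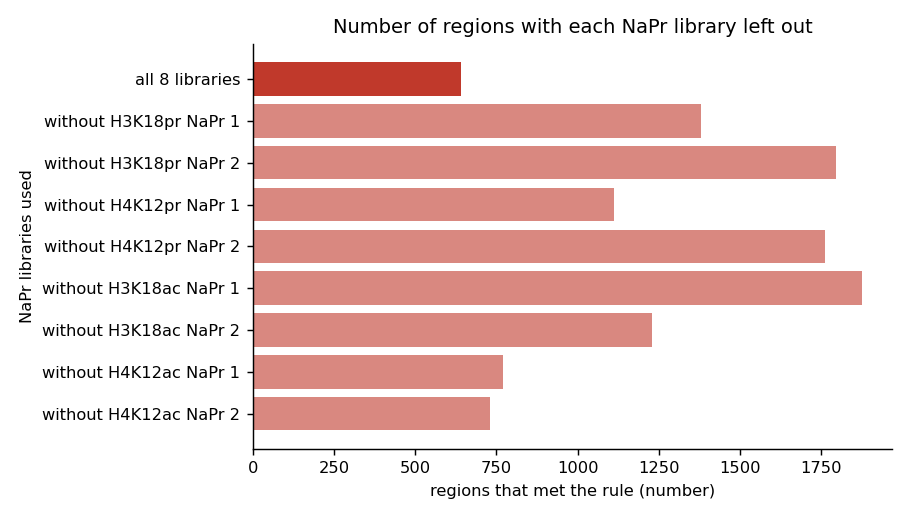
Number of union regions that met the rule with all 8 NaPr libraries (642) and with each library left out in turn. The number rises to between 730 and 1875, most without H3K18ac NaPr replicate 1 and least without H4K12ac NaPr replicate 2. Each omission removes a condition of the rule, so a rise was likely in every case.

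Depth also differed between the marks compared in the rule. Fragments per kb of genome, recovered from the deposited fold and p of each summit, were 3.38 to 8.38 in the propionyl libraries and 24.1 to 38.6 in the NaPr acetyl libraries. The propionyl libraries carried a run tag of their own in the deposited names, so mark and run cannot be told apart. The part of depth in the selection was not tested. Each of the 3 inputs also had called regions on a few members: 38 (5.92%) for NaPr, 11 (1.71%) for NaBu and 28 (4.36%) for untreated. The same inputs met 14.2%, 7.80% and 23.5% of core regions. They met 7.23%, 2.41% and 4.82% of acetyl regions, and 2.60%, 1.02% and 2.43% of all union regions. These sets were not matched for width. Markers were used to check the labelled cells. Untreated H3K18ac lay within 1 kb of the start in both replicates for 7 of 8 colon epithelium markers (KRT8, KRT18, KRT19, CDH1, EPCAM, VIL1 and CLDN4, but not LGALS4). It did so for 0 of 4 immune, 1 of 3 fibroblast (COL1A1) and 0 of 3 endothelial markers, and no marker start had a member.

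Members were mostly distal. By the middle of the region, 45 (7.01%) lay at a promoter, within 1 kb of the start of a protein-coding or lncRNA gene. Exons held 41 (6.39%), introns 368 (57.3%) and intergenic DNA 188 (29.3%). The median distance to a start site was 16179 bp, and 408 (63.6%) were more than 10 kb away. Core regions were at promoters in 27.7% of cases and acetyl regions in 15.7%, against 5.14% of all union regions, so the placement of members lay closer to that of an average called region than to that of the core.

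**Figure D4:**
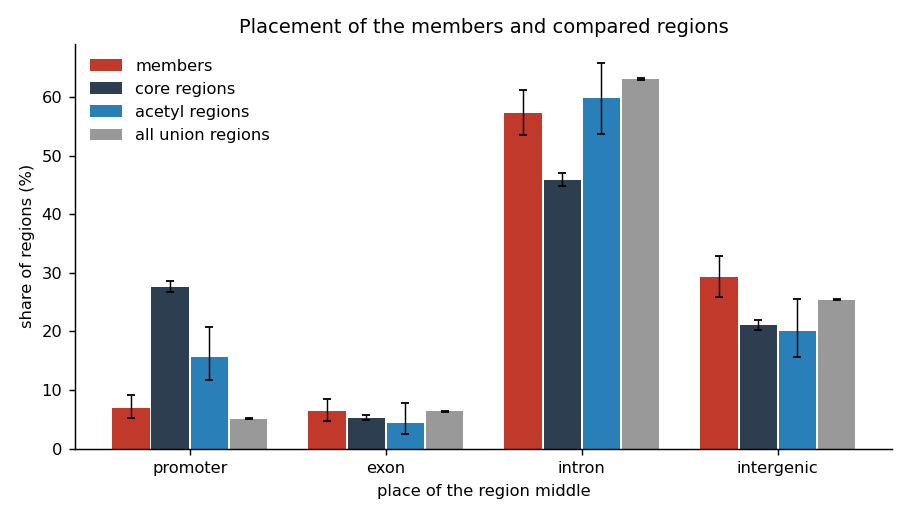
Share of regions (%) whose middle lies at a promoter, in an exon, in an intron or between genes, for members, core regions, acetyl regions and all union regions. Bars start at 0 and error bars are 95% Wilson intervals for counting error; 7.01% of members and 27.7% of core regions are at promoters.

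The difference in promoter share was measured on each propionyl library's own summits. The share of member summits at promoters was 7.32% and 6.54% for H3K18pr and 6.54% and 7.17% for H4K12pr, against 32.8%, 32.0%, 32.0% and 31.8% of core summits. Members were lower in 4 of 4 libraries, and the groups did not overlap. The mean difference was −25.3 percentage points, with members at 6.89% ± 0.410 (SD, n = 4) and core at 32.1% ± 0.439. A two-sided exact sign-flip test over the 4 libraries gave p = 0.125 (adjusted p = 0.333 over 8 properties), which is the smallest p that 4 libraries allow. The libraries share their regions, so the count of 4 of 4, the SD and this test cover the placing of summits only. Among regions of 500 to 2000 bp the difference was −35.6 percentage points. Without H3K18ac NaPr replicate 1 it was −10.9.

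Member summits were intergenic in 29.5% ± 0.201 (SD, n = 4) of cases and core summits in 20.7% ± 0.0750, higher in 4 of 4 libraries by 8.84 percentage points (exact sign-flip p = 0.125, adjusted p = 0.333). The GC share of the 200 bp summit windows was 53.0% ± 0.595 in members and 54.3% ± 0.499 in core regions, a difference of −1.29 percentage points in the same test (exact p = 0.125, adjusted p = 0.333). For both properties the 4 libraries share their regions, so the SD and the test cover the placing of summits only. Both directions turned without H3K18ac NaPr replicate 1, where the intergenic difference was −0.47 and the GC difference 1.23 percentage points. The lower promoter share kept its direction there, and the intergenic and GC differences did not.

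Letter runs of 5 transcription factor families were searched on both strands of the summit windows. For AP-1 these were TGACTCA and its reverse complement TGAGTCA. For the Krüppel-like factors (KLF) they were GGGCGGGGC, GGGCGTGGC, GGGTGGGGC and GGGTGTGGC, and for SMAD CTGTCTGG. For CTCF the first was AGGGGGC, the next was AGGTGGC, and the last was AGATGGC. For TCF/LEF the letters were ATCAAAG. AP-1 letters were in 3.27% ± 0.708 (SD, n = 4) of member windows and 2.83% ± 0.141 of core windows. The shares in members and core were 2.34% and 2.04% for KLF, 1.40% and 1.41% for SMAD, 13.5% and 13.3% for CTCF and 1.75% and 1.86% for TCF/LEF. The differences ran from −0.10 for TCF/LEF to 0.44 percentage points for AP-1, and exact sign-flip p-values from 0.5 to 1. Without H3K18ac NaPr replicate 1 the AP-1 difference was −0.41 and the SMAD difference 0.19 percentage points, both in the other direction. In the 300-base promoters of 35116 RefSeq genes, the same letters were in 3.54% for AP-1, 16.3% for KLF, 1.11% for SMAD, 17.8% for CTCF and 1.77% for TCF/LEF.

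The state of members in libraries that the rule did not use was read from 4 untreated acetyl libraries and 8 NaBu libraries. In untreated cells 474 members (73.8%, 95% Wilson interval 70.3% to 77.1%) met a called region of at least 1 acetyl library. The share of all 550995 union regions that did so was 34.7%. It was 99.98% of core regions and 86.3% of acetyl regions. These sets were not matched for width, which had a median of 1194.5 bp in members and 364 bp over all union regions. A wider region has more bases on which to meet a called region. Without H3K18ac NaPr replicate 1 in the rule, 88.96% of the 1875 regions met an untreated acetyl region, and without H4K12pr replicate 2 62.98% of 1761. The site of the acetylation varied between members: 192 members met 1 untreated library, 155 met 2, 84 met 3 and 43 (6.70%) met all 4, while 168 (26.2%) met none. Both H3K18ac replicates were met by 158 members (24.6%) and both H4K12ac replicates by 101 (15.7%). Acetylation at both H3K18ac replicates with neither H4K12ac replicate occurred in 60 members, and the converse in 29.

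By library, untreated H3K18ac met 271 members (42.2%) in replicate 1 and 259 (40.3%) in replicate 2. Untreated H4K12ac met 183 (28.5%) and 213 (33.2%). The 2 H3K18ac libraries were thus above the 2 H4K12ac libraries, although the H3K18ac lists were shorter, with 76888 and 155103 regions against 208823 and 191194. The acetyl regions found there had median folds of 3.38 and 2.67 for H3K18ac and 2.36 and 2.41 for H4K12ac. The medians of the whole lists were 3.77, 2.67, 2.45 and 2.54, and those within core regions 7.88, 3.91, 3.00 and 3.04. Acetyl regions showed the other order, with H3K18ac on 40.2% and 41.8% of them, and H4K12ac on 68.3% and 62.2%. So did all union regions, with H3K18ac on 11.3% and 14.6% of them, and H4K12ac on 20.5% and 19.0%.

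The deposited names of the NaBu acetyl lists carry a control tag (cnt) although their labels state 1 mM NaBu. The labels were followed, and every NaBu acetyl value rests on them. In NaBu cells, H3K18ac met 233 members (36.3%) and 141 (21.96%), and H4K12ac met 114 (17.8%) and 17 (2.65%). The shares of all union regions were 10.3%, 6.61%, 6.45% and 1.45% in the same order. At each site the butyryl libraries met fewer members than the NaBu acetyl libraries, and their lists were shorter. H3K18bu met 55 (8.57%) and 71 (11.1%), and H4K12bu met 12 (1.87%) in each replicate. These 4 libraries met 2.49%, 2.44%, 1.20% and 0.965% of all union regions. At least 1 butyryl library met 97 members (15.1%), against 3.67% of all union regions, 66.8% of core regions and 16.1% of acetyl regions. Here too the sets were not matched for width. All 4 butyryl libraries met 4 members, and 17 members met a butyryl library without any untreated acetyl library. The H4K12bu lists were also the shortest, with 9642 and 8158 regions.

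**Figure D5:**
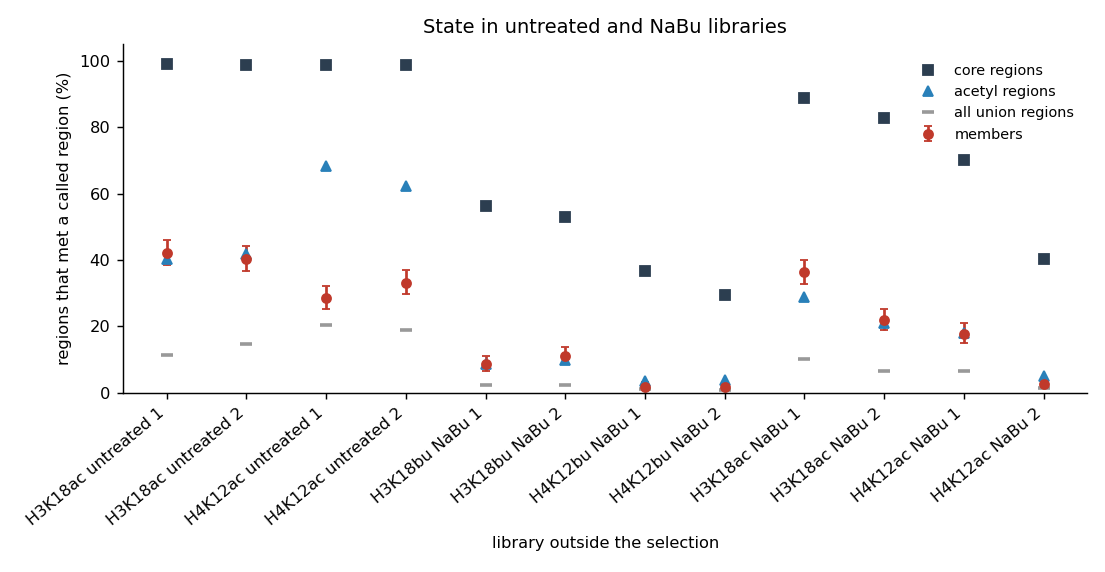
Percentage of members, core regions, acetyl regions and all union regions that met a called region of each of the 12 untreated and NaBu libraries. Points are single libraries and error bars on members are 95% Wilson intervals for counting error; members range from 1.87% to 42.2% and lie below core regions in every library.

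To set libraries of unequal length side by side, the share of members that met a region was divided by the share of core regions that did. The log2 of this ratio was −1.23 and −1.29 for untreated H3K18ac, −1.79 and −1.57 for untreated H4K12ac, −1.29 and −1.91 for NaBu H3K18ac, −1.98 and −3.92 for NaBu H4K12ac, −2.72 and −2.26 for H3K18bu and −4.30 and −3.97 for H4K12bu. Every value was below 0. Members were chosen for no acetyl region in NaPr and core regions for all 4 acetyl libraries, and core regions were wider. Values below 0 were thus favoured by the selection and are given as a description. H3K18 libraries were above H4K12 libraries in each of the 3 pairings of mark and condition, by 0.42 in untreated acetyl, 1.35 in NaBu acetyl and 1.65 in butyryl, and the libraries did not overlap within a pairing. The mean difference was 1.14 on the log2 scale (two-sided exact permutation p = 0.00926, the smallest p that 216 arrangements allow, adjusted p = 0.0278 over 3 tests). Both sets in the ratio were chosen by acetyl lists of the same 2 sites in NaPr, and the part of that selection in the site difference was not tested.

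This site difference did not pass when 1 of the NaBu H3K18ac libraries was left out, at 1.04 (exact p = 0.0648) without replicate 1 and 1.25 (exact p = 0.0556) without replicate 2. It was 0.71 without H3K18ac NaPr replicate 1 (exact p = 0.00926). When each of the 12 lists was limited to its 8158 strongest regions, a setting chosen after the data were seen, the difference was 0.82 (exact p = 0.167). List length thus moved with this result. With a replicate block the adjusted exact p over the 3 tests was 0.0938 and did not pass. That is the smallest value the block allows, so this setting could not have passed.

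Butyryl libraries were below acetyl libraries of the same NaBu cells in each pairing, with a mean difference of −1.03 on the log2 scale (exact permutation p = 0.0556, the smallest that 36 arrangements allow, adjusted p = 0.0833). The difference was −0.88 at H3K18 and −1.18 at H4K12, and libraries did not overlap at either site. It was −0.55 without H4K12ac NaBu replicate 1. With lists of equal length it was 0.15 (exact p = 0.778), so the direction depended on list length. Acetyl libraries of NaBu cells were below those of untreated cells with a mean difference of −0.81 (exact p = 0.111, adjusted p = 0.111), overlapping at H3K18 and apart at H4K12. It was −1.29 without H4K12ac NaBu replicate 1 and −0.32 without replicate 2. With lists of equal length it was 3.38 (exact p = 0.0556), and against acetyl regions in place of core regions 0.39 (exact p = 0.167). The NaBu libraries carried a run tag of their own, so treatment and run cannot be told apart.

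Members were split by their state in untreated cells after the data were seen, with no test. Of the 43 with all 4 untreated acetyl libraries, 23.3% were at promoters, and their median gap to a NaPr acetyl region was 287 bp. Of the 168 with none, 4.17% were at promoters and the median gap was 689 bp. Their median lowest folds were 3.13 and 2.92. None of the 12 libraries outside the rule met 115 members (17.9%), and 96 of these (14.95% of all members) also met no input. The same share was not counted over all union regions. Only 34.7% of all union regions met an untreated acetyl library, against 73.8% of members, so such absence is not particular to members. No member met all 12.

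The 10 strongest members by their lowest fold were spread over 9 chromosomes and were all introns or intergenic stretches. The first, chr16:67293595-67296614 in an intron of KCTD19, had folds of 11.2 and 7.43 in H3K18pr and 7.52 and 8.39 in H4K12pr. It met 9 of the 12 outside libraries and 1 input, including all 4 untreated acetyl libraries and both H3K18bu libraries. The second, chr16:27407188-27407968 in an intron of the interleukin receptor gene IL21R, had folds of 11.3, 7.52, 7.28 and 6.50. It met 1 outside library, NaBu H3K18ac replicate 2. The third, chr9:112058500-112059662 in an intron of SUSD1, had folds of 13.05, 5.83, 6.40 and 6.97 and met both untreated H3K18ac libraries.

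The sixth strongest, chr7:102096261-102097674 in an intron of the homeobox factor gene CUX1, had folds of 12.3 and 8.02 in H3K18pr and 5.29 and 5.64 in H4K12pr. It met no untreated acetyl library, yet met both H3K18bu and both NaBu H3K18ac libraries. The eighth, chr5:36552135-36554451, was intergenic, 43295 bp from the start of the glutamate transporter gene SLC1A3, with folds of 8.87, 5.79, 5.15 and 6.40. It met no outside library, 1 input did meet it, and the nearest NaPr acetyl region was 6806 bp away. The ninth, chr1:14755910-14757977 in an intron of KAZN, which encodes kazrin of cell junctions, had folds of 10.1, 8.70, 5.20 and 5.13 and met all 4 untreated acetyl libraries.

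The others of the 10 were chr22:40239622-40240758 in an intron of TNRC6B, a gene of microRNA silencing, chr2:17299501-17301907 with RAD51AP2 as its nearest gene, chr10:3890386-3891407 nearest LINC02660 and 105616 bp from the Krüppel-like factor gene KLF6, and chr8:8537965-8538744, intergenic. Their lowest folds were 5.46, 5.44, 5.17 and 5.04. These 4 met 1, 2, 5 and 1 of the outside libraries.

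The widest members lay in introns or between genes. The widest of all, chr7:1449067-1453906 in an intron of MICALL2, a gene of junction and actin traffic, spanned 4840 bp with folds of 2.99, 4.58, 8.06 and 6.15. The next were chr5:141782601-141786504 between genes (3904 bp), then chr10:71837232-71841079 in the saposin precursor gene PSAP (3848 bp) and chr11:117821378-117824986 in FXYD2, which encodes a regulator of the sodium pump (3609 bp). The PSAP member met all 4 untreated acetyl libraries and no NaBu library, and its folds were 10.5, 9.61, 4.45 and 3.64.

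Chained at gaps of up to 10 kb, 612 stood alone and the other 30 formed 15 pairs, and no group was larger than 2. The median gap to the next member on a chromosome was 1533 kb, against 67.9 kb between core regions, which were more numerous. In the TENT5B pair, chr1:27007653-27010341, the members had folds of 6.35, 3.43, 2.83 and 3.92 and of 5.23, 5.50, 3.12 and 4.10. The CNIH2 pair, chr11:66279800-66282415, lay over a gene that encodes an auxiliary subunit of glutamate receptors, with no core region on it. The other pairs among the 5 named by rule were at ABL2 (chr1:179169056-179179328), LINC00545 near MEDAG (chr13:30870881-30872977) and SLC43A2 (chr17:1574832-1588277).

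Chromosome 7 held the most members, 54 (8.41%), against 6.12% of the regions with all 4 propionyl libraries. Chromosome 20 held 38 (5.92%) against 4.33%, and chromosome 1 held 44 (6.85%) against 8.92%. Per 100 regions with all 4 propionyl libraries, members numbered 1.69 on chromosome X, 4.18 on chromosome 20, 4.20 on chromosome 7 and 5.36 on chromosome 18, which held 12. Copy number of these chromosomes in the line was not analysed here.

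Of 20007 protein-coding genes, 374 (1.87%) had a member over the gene body with 1 kb on both sides. These genes had a median length of 83.7 kb against 27.4 kb for all protein-coding genes. There were 31 genes with 2 or more members and 4 with 3. Of the 374, 190 (50.8%) had no core region over them, against 73.4% of all protein-coding genes, which were shorter. A member over a gene gives its position only, and expression was not measured in these libraries.

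The 4 genes with 3 members were SLC43A2, which encodes an amino acid transporter, COL4A2, a chain of basement membrane collagen, KLHL29 and PTPRN2, a phosphatase-like protein of secretory vesicles. The SLC43A2 members had lowest folds of 3.42, 3.64 and 3.00 within 59.6 kb of gene. The COL4A2 members had 2.99, 3.07 and 3.42, the KLHL29 members 2.89, 3.46 and 3.21, and the PTPRN2 members 3.28, 3.34 and 2.85. Each gene also held core regions, with 1 in SLC43A2, 5 in COL4A2, 4 in KLHL29 and 7 in PTPRN2. No member of these 4 genes met a butyryl library.

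The other 11 named genes had 2 members each. Transport and channel genes were SLC9A8 (a sodium and proton exchanger), SLC20A2 (a phosphate transporter) and TRPM8 (the cold-sensing channel). In TRPM8 the member chr2:233974888-233976800 had folds of 9.12, 6.14, 9.19 and 3.15 and met all 4 untreated acetyl libraries. Adhesion and signalling genes were NECTIN1 (a protein of adherens junctions), ABL2 (a kinase that acts on actin) and SH2D3C (an adaptor). The SH2D3C member chr9:127735498-127737644 had the folds 15.3 and 11.02 in H3K18pr and 5.37 and 3.87 in H4K12pr. The ABL2 members met no outside library. The rest were CNIH2, TENT5B, TMEM45A, GOLIM4 and RTN4RL1. In GOLIM4, a Golgi membrane protein gene, neither member met an untreated library.

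In the gene lists that fit the tissue and treatment, few genes held a member. Members lay over 2 of 25 genes of EGF receptor signalling (EGFR and MAP2K1). They lay over 1 of 24 of focal adhesion and actin (ACTN1), 1 of 25 of TGF-beta and SMAD signalling (SMAD3), 1 of 21 of voltage-gated calcium channels (CACNB3) and 1 of 32 of acyl-lysine enzymes and readers (HDAC5). No member lay over the 22 genes of the unfolded protein response, 25 of Wnt and beta-catenin, 23 of intestinal transcription factors or 26 ribosomal protein genes. The share over all protein-coding genes was 1.87%, against 8.0% for EGF receptor signalling and 3.13% to 4.76% for the lists with 1 such gene. These shares rest on 1 or 2 genes per list and were not tested. The listed genes also differ from all genes in length, with a median of 82.1 kb for EGF receptor signalling and 6.50 kb for ribosomal proteins. Core regions lay over more genes of each list, such as 22 of focal adhesion and actin, 13 of the unfolded protein response and 14 of Wnt and beta-catenin.

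In EGFR, the receptor of epidermal growth factor, the intronic member chr7:55047006-55047683 had folds of 3.36, 2.99, 2.81 and 4.29 and met 2 untreated libraries. In SMAD3, the signal carrier of the TGF-beta receptor, chr15:67069357-67070047 had folds of 2.56, 2.55, 2.92 and 2.85. In HDAC5, a lysine deacetylase gene, chr17:44107074-44110101 had folds of 2.93, 2.91, 5.46 and 3.08 and met 3 untreated libraries. None of the members over EGFR, MAP2K1, ACTN1, SMAD3, CACNB3 or HDAC5 met a butyryl library. Core regions over these genes numbered 5 in EGFR, 9 in SMAD3, 1 each in MAP2K1 and ACTN1, and 0 in CACNB3 and HDAC5.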

How the data were processed

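Called regions of 20 immunoprecipitated and 3 input libraries were used. The members and gene lists were chosen with earlier results of these data known. The authors aligned reads to GRCh38.p13 and called peaks of each library against input with MACS2, without pooling replicates. Bowtie2 2.3.1, MACS2 2.1.0, cutadapt 1.8.1 and bcl2fastq 2.17.1 are named in the submitters' processing notes. Each deposited peak holds a fold enrichment (a ratio of pileup to background), a −log10 p-value and a −log10 q-value, as the authors' caller gave them, and every list was called at p 0.01. Fold and p were used to describe, rank or filter regions, not to compare libraries as measured amounts.

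Of 2187390 regions on chromosomes 1 to 22, X and Y, 0 passed the end of an hg38 chromosome, and genes came from GENCODE 44. Regions were merged at 1 bp overlap. Shares have 95% Wilson intervals, which cover counting error only. Occupancy of members over that of core regions was compared by exact permutation of libraries within strata (3 tests), and summit properties by exact sign flips over 4 libraries (8 tests), with Benjamini-Hochberg adjustment. Both tests were checked on a short set of made-up values with a known p. Groups came from the sample labels. Replicate 1 lay above its group mean in 3 of 6 groups, a count that cannot show whether same-numbered libraries pair. It lay above in both NaBu acetyl groups, below in both butyryl groups, and on opposite sides in the untreated groups. Numbers were not taken as pairs in the main tests, and a replicate block was an alternative.

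Named members were the 10 with the highest lowest fold, the 5 widest, the 5 largest clusters and the 3 weakest. Named genes were the 15 with most members and up to 4 of each list. Some named items, 1 gene list among them, are not reported here. Depth was solved from the fold and p of summits. It could not be solved for NaBu lists or the untreated input, whose pileups were scaled. Reads were not used here. Alternatives covered the q-value, list length, overlap, distance to acetylation, inputs, width, compared set, promoter window and each library left out. Python 3.11.15, numpy 2.4.6, pandas 2.3.3, scipy 1.17.1, pysam 0.24.0 and matplotlib 3.10.9 were used.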

Additional observations from a re-analysis of the deposited data

Results flagged for a closer look

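The AP-1 letters differed between the 2 histone sites. The share in members minus that in core regions was −0.12 and −0.17 percentage points in the H3K18pr libraries and 0.76 and 1.29 in the H4K12pr libraries, so both libraries of one site moved opposite to both of the other, by 1.17 percentage points between the site means. The difference between the sites was not tested.

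The input libraries, which the rule did not use, had called regions on members. The NaPr input met 38 members (5.92%), against 2.60% of all union regions and 14.2% of core regions. These sets were not matched for width. Members on an input region numbered 75 over the 3 inputs, with median folds of 5.11 and 4.07 in H3K18pr and 3.77 and 3.70 in H4K12pr, against 4.55, 4.01, 3.63 and 3.63 over all members. Without union regions on an input there were 567 members.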

How the results depend on the processing

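Counts of members depend on the lists used. Leaving out 1 NaPr library gave 730 to 1875 members, and requiring 1 kb to the nearest acetyl region gave 228. The share of members with an untreated acetyl region ran from 62.98% to 88.96% over the left-out libraries, and was 84.5% with the 94121 strongest regions of each NaPr list. The number of members was within 1.5 times of 642 at q 0.05 (670), with equal NaPr lists (684), with a common base (438) and without regions on inputs (567). The lower promoter share of members kept its direction under all 16 alternatives, from −35.6 to −10.9 percentage points.

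The site difference in occupancy ran from 0.71 to 1.46 on the log2 scale over left-out libraries, and its unadjusted p missed the threshold in 3 of 29 alternatives, those without either NaBu H3K18ac library and the one with equal outside lists (0.82), an alternative chosen after the data were seen. Its exact p over the alternatives ran from 0.00926 to 0.167. Adjusted over the 3 tests it passed in 21 of 29 alternatives, with adjusted p from 0.0278 to 0.25. It did not pass either with the block, at 1 kb from acetylation, at 500 to 2000 bp, or without H3K18pr NaPr replicate 1 or H4K12ac NaBu replicate 2. With equal outside lists the butyryl minus acetyl difference was 0.15 and the NaBu minus untreated difference 3.38, both in the other direction, and the latter was 0.39 against acetyl regions. The replicate numbers were not shown to pair libraries. With a replicate block the differences were −1.03 (exact p = 0.125), 1.14 (exact p = 0.0312) and −0.81 (exact p = 0.125). Each of these is the smallest p that its block allows. Adjusted over the 3 tests, the site difference did not pass (adjusted exact p = 0.0938), nor did the others. No result could have passed with the block, so it cannot decide whether the differences hold.

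Over left-out libraries the intergenic difference ran from −0.47 to 14.4 percentage points and the GC difference from −2.71 to 1.23. The letter runs had no stable direction. Over left-out libraries AP-1 ran from −0.41 to 0.41, KLF from −0.34 to 0.84, SMAD from −0.17 to 0.19, CTCF from −1.01 to 1.46 and TCF/LEF from −0.36 to 0.087 percentage points. CTCF was −0.44 at q 0.05 and −0.35 against propionyl regions with acetylation. SMAD was 0.25 with equal NaPr lists, 0.34 at 1 kb from acetylation and 0.11 without regions on inputs. KLF was −0.020 with a common base, −0.18 at 1 kb from acetylation and −0.25 against propionyl regions with acetylation, where TCF/LEF was 0.032. TCF/LEF was 0.14 at 500 to 2000 bp. The causes were not tested.

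The propionyl libraries were the shallowest of those with a solved depth, at 3.38 to 8.38 fragments per kb, and a missing call shows only that the threshold was not passed. With 4 libraries the smallest p of a summit property is 0.125.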

Other observations

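Butyryl and untreated acetyl overlap of members varied by annotation. Of 41 exonic members 2.44% met a butyryl library, against 14.1% of 368 intronic, 18.1% of 188 intergenic and 22.2% of 45 promoter members. Promoter members met an untreated acetyl library in 84.4% of cases, against 82.9% of exonic, 77.7% of intergenic and 69.6% of intronic members. These shares were described after the data were seen and were not tested. They were not counted for union or core regions of each annotation, so whether they are particular to members is not known. The exonic and promoter shares rest on only 41 and 45 members. Median widths were 1344 bp for exonic, 1207 bp for intronic, 1162 bp for intergenic and 1165 bp for promoter members.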
